A study of Mus musculus with 4 samples.

Results

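The transcriptome of cultured wild-type mouse bone marrow stroma was described from the 2 libraries labelled wild type in a series of 4. The genes were chosen by level. A gene was taken as expressed where it reached at least 1 FPKM in both libraries, FPKM being a read count divided by gene length and by library total. Of 41029 genes, 11769 (28.7%) met that rule. The cells were mesenchymal stem/progenitor cells of the marrow of C57BL/6 mice, grown in MesenCult medium with its supplement, replated near confluence, trypsinised and lysed in Trizol. The labels give the genotype of these libraries as wild type and name no other allele. The other 2 libraries came from Tet2-/- cells of the same strain and culture and are not described. Age, sex and passage number were not used here, and the labels do not say whether the 2 wild-type libraries are separate mice or cultures, so their spread may be technical.

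Marrow stromal cells are the adherent, non-blood cells of the marrow. In the animal they give rise to bone, fat and cartilage, lay down the fibrous matrix, and hold blood stem cells near vessels through the chemokine CXCL12 and stem cell factor. On plastic they spread, divide and take on features of fibroblasts, so a culture profile mixes the identity of the starting cells with the state of growing cells.

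The libraries held 10096878 reads over genes (wild type 1) and 17778152 (wild type 2). A gene whose lower library lay between 1 and 1.1 FPKM rested on a median of 20.5 reads in wild type 1 and 35 in wild type 2, and 98.9% of the expressed genes had at least 10 reads in both. There were 142 genes between 1 and 1.1 FPKM in their lower library, just inside the rule, and 176 between 0.9 and 1. Another 601 genes reached 1 FPKM in 1 library only, 10185 were above 0 without reaching it in either, and 18474 (45.0%) were listed at 0 in both.

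All 5 genes that mark such cultures were well above the threshold. The chains of type I collagen led them: Col1a1 stood at 6257 and 5962 FPKM and Col1a2 at 6197 and 5965 FPKM in wild type 1 and 2. Cxcl12, the chemokine that retains blood stem cells, was at 291 and 298 FPKM. Eng, the TGF-beta co-receptor endoglin, was at 109.9 and 102 FPKM, and Nes, the intermediate filament nestin, at 78.7 and 79.4 FPKM. The libraries differed little in FPKM at each of these genes. In build GRCm38, Col1a1 (ENSMUSG00000001506) lies on chromosome 11 from 94936224 to 94953042, Col1a2 (ENSMUSG00000029661) on chromosome 6 from 4504814 to 4541544 and Cxcl12 (ENSMUSG00000061353) on chromosome 6 from 117168535 to 117181367. Eng (ENSMUSG00000026814) occupies chromosome 2, bases 32646595 to 32682669, and Nes (ENSMUSG00000004891) on chromosome 3 from 87971078 to 87980451. None of the 5 went against the label of a marrow stromal culture.

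A small number of genes carried much of the summed level. The 62 genes with a mean of 1000 FPKM or more held 21.1% of all FPKM, the 1036 genes from 100 to under 1000 held 40.4%, and the 4308 genes under 10 held 3.28%. The median expressed gene had a mean of 16.4 FPKM. Eef1a1, which encodes the elongation factor that brings aminoacyl-tRNA to the ribosome, ranked first at 7555 and 7135 FPKM (mean 7345 ± 297, SD, n = 2). After it came Col1a1, Col1a2, the mitochondrial gene mt-Atp8, the small proteoglycan gene Bgn (5326 and 5000.2 FPKM) and Vim, which encodes the mesenchymal filament vimentin (4977 and 5069 FPKM). The next ranks were held by cytoskeletal actins (Actb, Actg1), ferritin heavy chain (Fth1) and the actin-binding peptide gene Tmsb4x. Matrix genes filled 7 of the 25 highest ranks: Col1a1, Col1a2, Bgn, the fibronectin gene Fn1 (2621 and 2571 FPKM), Sparc (2515 and 2546 FPKM), the osteopontin gene Spp1 (1775 and 1918 FPKM) and Col5a2 (1848 and 1772 FPKM).

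**Figure D1:**
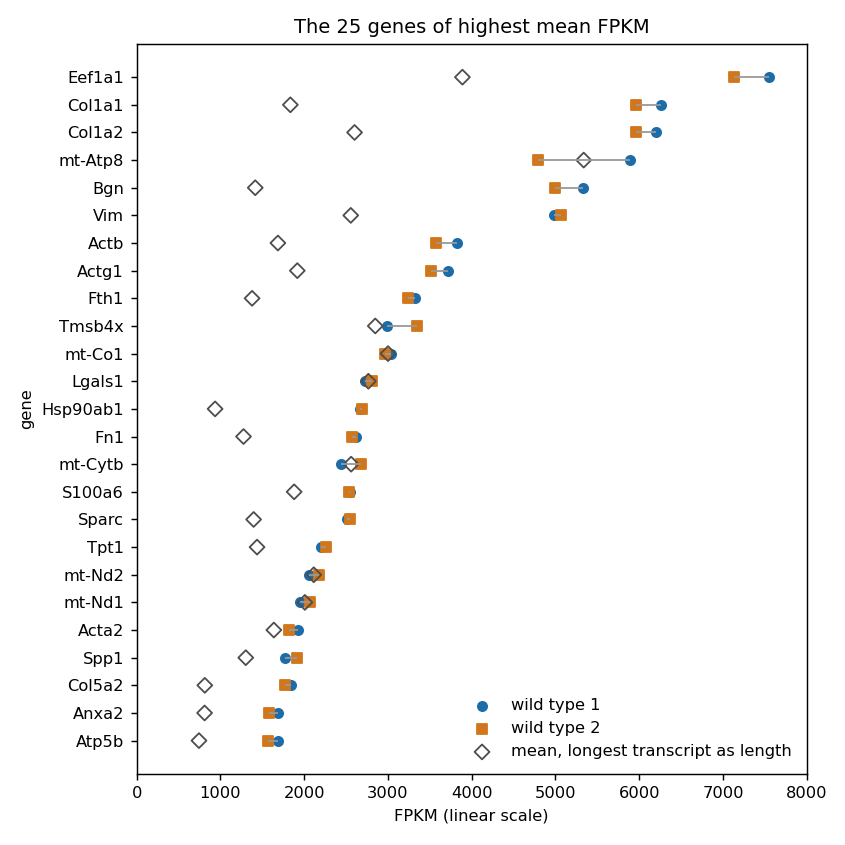
The 25 genes of highest mean FPKM, in rank order from the top; circles and squares give wild type 1 and 2 on a linear FPKM axis, and open diamonds give the mean recomputed with the longest annotated transcript as the length. The widest gap between the libraries is at mt-Atp8 (5886 and 4789.7 FPKM), and the diamond of Col1a1 falls to 1835 FPKM while that of mt-Atp8 stays at 5338 FPKM.

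The levels depend on the gene lengths behind them. The length that the deposited values imply for Col1a1 is 1781 bases. For 72.4% of the 25161 genes that could be compared it lies within 1 base of the mean length of the gene's transcripts in GENCODE release M21. Of the 12886 genes with over 2 transcripts, 63.0% lie within 1 base of the mean, 0.698% of the median and 1.23% of the longest. Short annotated fragments of a gene therefore raise its FPKM. With the longest transcript as length, Col1a1 went to a mean of 1835 FPKM (rank 13), Col1a2 to 2602 (rank 6), Bgn to 1416 (rank 18) and Eef1a1 to 3890 (rank 2). Of the 25 highest genes 21 were the same, and of the 100 highest 76.

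Promoters of 5 abundant or defining genes are printed to show how differently they are built: the gene of highest level, 3 genes of structure and matrix, and the niche chemokine. Each is the 60 bases before the RefSeq start of the gene (GRCm38.p6), 5′ to 3′ on the gene's strand. Capitals mark TATAAA, the motif of a TATA box, and GGGCGG, a GC box, or its reverse complement; matches that overlap each other are run together, and CCAAT, searched for as well, occurs in no window shown.
Vim, chr2:13574251-13574310, plus strand: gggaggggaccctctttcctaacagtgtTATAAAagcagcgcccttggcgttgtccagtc
Eef1a1, chr9:78481725-78481784, minus strand: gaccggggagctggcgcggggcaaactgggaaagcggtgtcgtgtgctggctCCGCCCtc
Bgn, chrX:73483541-73483600, plus strand: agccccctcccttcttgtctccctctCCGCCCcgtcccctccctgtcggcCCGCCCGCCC
Col1a2, chr6:4505558-4505617, plus strand: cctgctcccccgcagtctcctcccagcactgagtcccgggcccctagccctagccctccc
Cxcl12, chr6:117168475-117168534, plus strand: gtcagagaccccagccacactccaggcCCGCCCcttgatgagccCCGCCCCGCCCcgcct

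Vim carries TATAAA with its first base 32 bases before the start, Eef1a1, Bgn and Cxcl12 carry GC boxes, and the window of Col1a2 holds none of these letters. Over 300 bases (250 before the start and 50 after), the ratio of observed to expected CpG was 0.421 for Vim, 0.317 for Bgn, 0.470 for Col1a2, 0.639 for Cxcl12 and 0.697 for Eef1a1. No protein-coding gene on chromosome 18 had a matched promoter. RefSeq promoters were matched to 8966 of the 11124 expressed protein-coding genes (80.6%). Their median ratio was 0.784 and 76.0% of them were above 0.6, beside a median of 0.5997 and 49.9% for the 16718 protein-coding genes with a promoter, expressed or not, and 0.389 and 36.4% for all 27025 promoters of the table. The 16718 are 77.5% of protein-coding genes, under the 80% needed, so that contrast is void as a check and is given as values. TATAAA starting and ending between 40 and 16 bases before the start, on the gene's strand, was present in 1.04% of expressed genes, 2.87% of the protein-coding genes with a promoter and 2.22% of all promoters. Among genes with a mean from 10 to under 100 FPKM it was present in 0.685%, and among those from 100 to under 1000 FPKM in 2.49%. The GC box, on either strand and anywhere in the 300 bases, occurred in 66.9% of expressed genes, 47.9% of protein-coding genes with a promoter and 35.9% of all promoters. CCAAT, likewise, occurred in 39.1%, 39.0% and 37.9%. For genes listed at 0 the comparison was void too, since 75.4% of them had a promoter; the same held for the genes above 1000 FPKM (70.5%).

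Counts of expressed genes in the lists that follow are to be read against the protein-coding genes as a whole, of which 11124 of 21560 (51.6%) were expressed. Collagens (56.8%), cytokine receptors (58.1%), transcription factors (54.1%), receptor tyrosine kinases (52.5%) and adipocyte markers (52.2%) lay near that share. So did the matrix group (162 of 288) and the receptor group (135 of 266) as wholes, and for all of these the counts are not a result.

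Matrix genes held a large share of the summed level. Of 288 genes of matrix proteins, their processing enzymes, proteases and inhibitors, 162 were expressed, and the group took 8.57% and 8.35% of summed FPKM. Cytosolic ribosomal proteins, by comparison, took 5.48% and 5.68% from 81 expressed genes. By reads, which are not divided by gene length, the mean shares were 10.4% for the matrix lists and 2.44% for ribosomal proteins.

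Collagens alone held 2.76% and 2.65%, with 25 of 44 alpha chain genes expressed, and 10 of 11 fibrillar chains. By reads they held 3.95%, above the ribosomal proteins. Beside type I collagen and Col5a2, the type VI chains of the pericellular network were high, with Col6a1 at 495 and 480.0 FPKM and Col6a3 at 478 and 469.9 FPKM. Col3a1, the fibrillar collagen of soft connective tissue, reached 308 and 297 FPKM, well under the type I chains. Col4a1 of basement membranes was at 183 and 178 FPKM. Cartilage chains were lower: Col11a1 was at 59.6 and 60.3 FPKM and Col2a1 at 6.62 and 6.08 FPKM. Col5a3 (0.513 and 0.381 FPKM) was the fibrillar chain that missed the threshold, and 7 alpha chains, among them Col9a1, Col9a2 and Col13a1, were listed at 0.

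The enzymes that make collagen were almost all present, 26 of 27. P4hb, the beta subunit of prolyl hydroxylase, was at 1171 and 1173 FPKM and Lox, the lysyl oxidase that cross-links fibres, at 1139 and 1187 FPKM. The procollagen C-proteinase enhancer gene Pcolce (859 and 834 FPKM) and the collagen chaperone gene Serpinh1 (473 and 437 FPKM) followed. Loxl3, a related oxidase, was at 273 and 253 FPKM.

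Among 48 matrix glycoproteins 38 were expressed. Under Fn1, Sparc and Spp1 came Ecm1 (1236 and 1183 FPKM), Thbs1, which encodes the adhesive protein thrombospondin 1 (905 and 878 FPKM), and Fbln2 (918 and 839 FPKM). Mgp, an inhibitor of calcification, stood at 421 and 402 FPKM. Eln, which encodes elastin, and Vtn, vitronectin, were listed at 0. Laminins and nidogens of basement membranes were expressed in 10 of 13 cases, led by Nid1 (191 and 195 FPKM), Lamb1 (178 and 171 FPKM) and Lamb2 (159.6 and 153 FPKM).

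Proteoglycans were uneven. Bgn (biglycan) exceeded 5000 FPKM in wild type 1 and 2, whereas Dcn, the closely related decorin, was at 30.3 and 30.5 FPKM and Lum, lumican, at 16.1 and 17.7 FPKM. The cell-surface heparan sulphate carriers Gpc1 (393 and 351 FPKM) and Sdc2 (239.8 and 239.7 FPKM) lay between them. Vcan, the large aggregating versican, was at 193 and 197 FPKM. Of 29 proteoglycans 19 were expressed and 4, Epyc, Gpc3, Kera and Spock1, were listed at 0.

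Among the genes listed, the highest inhibitors of matrix breakdown stood above the highest matrix proteases. Timp1, an inhibitor of metalloproteinases, was at 1641 and 1565 FPKM, Timp2 at 1023 and 1009 FPKM and Timp3 at 694 and 710.2 FPKM. Serpinf1, which encodes the anti-angiogenic factor PEDF, was at 1386 and 1405 FPKM. It is listed with the inhibitors as a serpin family gene and is not counted here as an inhibitor of matrix breakdown. The highest of the matrix proteases listed was Mmp14, the membrane-bound collagenase, at 632 and 599 FPKM, then the gelatinase gene Mmp2 at 204 and 191 FPKM. Ctsd, a lysosomal cathepsin gene listed apart from them, was above Mmp14 at 1109 and 982 FPKM. Of the 68 matrix proteases 29 were expressed and 19 were listed at 0.

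**Figure D2:**
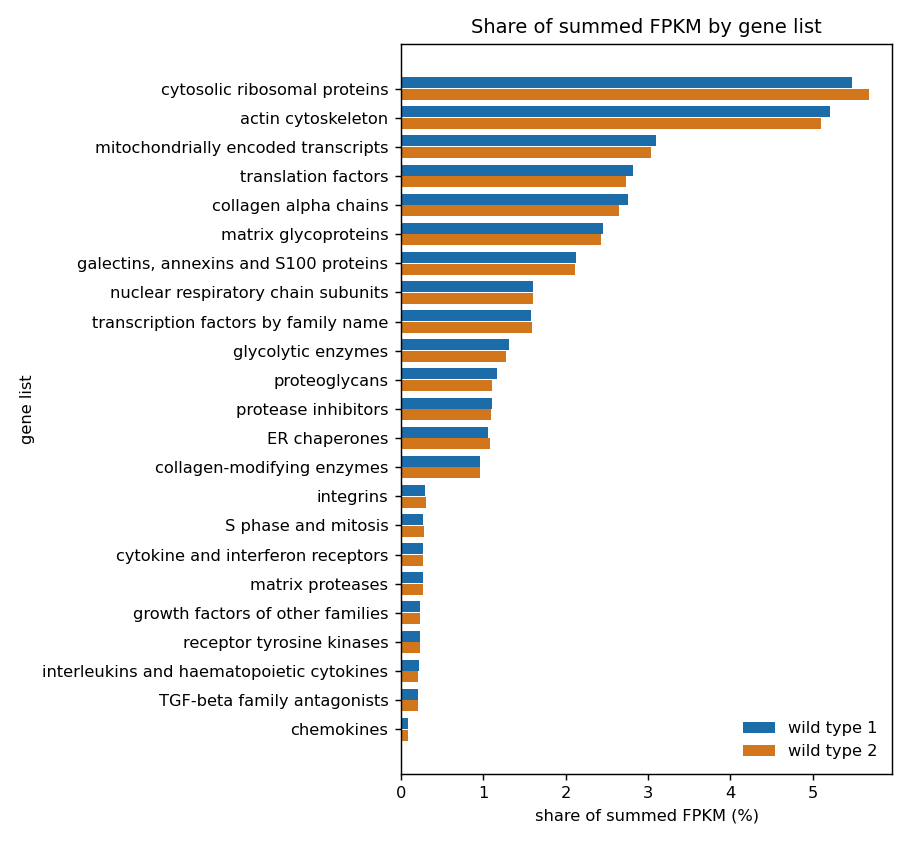
Share of summed FPKM (percent, linear axis) held by functional gene lists in wild type 1 and 2; a gene may stand in more than 1 list. Ribosomal proteins and the actin cytoskeleton take over 5% each, collagens 2.76% and 2.65%, and chemokines the least of those drawn; by reads, not drawn, collagens (3.95%) stand above ribosomal proteins (2.44%).

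Secreted signals were far less abundant. Of 317 genes for chemokines, cytokines, growth factors and their secreted partners, 131 were expressed, and they took 0.977% and 0.962% of summed FPKM. The highest were Fstl1, a follistatin-like glycoprotein (1031 and 1019 FPKM), Csf1, the growth factor of macrophages and osteoclast precursors (785 and 765 FPKM), Grn, progranulin (479 and 458 FPKM) and Mif (388 and 348 FPKM).

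Factors that act on blood cells were present at very unequal levels. Cxcl12 led the chemokines, of which 15 of 39 were expressed. The monocyte attractants Ccl7 (66.8 and 68.6 FPKM) and Ccl2 (47.6 and 42.5 FPKM) came next. Among 79 interleukins and haematopoietic cytokines 15 were expressed and 33 listed at 0. Kitl, stem cell factor, was at 18.6 and 21.4 FPKM, Lif at 14.9 and 14.2 FPKM and Il6 at 4.82 and 4.41 FPKM. Il7, the lymphoid growth factor that marrow stroma makes in the animal, was just under the threshold at 0.958 and 0.997 FPKM.

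Growth factors of the TGF-beta family were moderate. Of its 32 ligands 11 were expressed, led by the activin subunit Inhba (49.9 and 47.8 FPKM) and Tgfb2 (47.2 and 50.3 FPKM). Bmp4, a bone morphogenetic protein, was at 36.7 and 35 FPKM while Bmp2 was at 0.251 and 0.301 FPKM. Antagonists of the family were expressed in 11 of 15 cases, among them Grem1 at 27.2 and 27.7 FPKM. Nog, noggin, was at 0.175 and 0.265 FPKM, and Sost, the Wnt inhibitor of osteocytes that is grouped with them, was listed at 0.

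Only a few Wnt and FGF ligands were expressed. Wnt10b, which favours bone over fat formation in mice, was the highest of 4 expressed among 19 Wnt genes (36.6 and 36.8 FPKM), followed by Wnt5a (9.03 and 8.14 FPKM). Their secreted modulators Dkk3 (85.5 and 83.9 FPKM) and Sfrp2 (69.3 and 73.1 FPKM) exceeded every Wnt ligand in both libraries. Fgf7, a growth factor for epithelia, was at 93 and 101 FPKM and led 5 expressed FGF genes of 22, ahead of Fgf2 (38.7 and 39.4 FPKM) and Fgf10 (18.6 and 17.4 FPKM).

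Other growth factor families were expressed more broadly, in 28 of 37 genes. Ptn, pleiotrophin, was at 198 and 206 FPKM and Vegfa, the vascular growth factor, at 95.8 and 106 FPKM. Igf1 was at 26.7 and 29.5 FPKM. Binding proteins for it were uneven, with Igfbp7 at 264 and 256 FPKM, Igfbp4 at 30.8 and 30 FPKM and Igfbp5 at 0.0385 and 0.0984 FPKM.

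Receptors and adhesion molecules were expressed in 135 of 266 cases and took 1.04% of summed FPKM in each library. Of these 266 genes the highest was an integrin subunit, a part of the receptors for matrix proteins. Lrp1, a receptor gene listed instead with the stromal surface markers, was higher at 1555 and 1464 FPKM. Itgb1, the common beta 1 chain, stood at 707 and 741 FPKM, Itgb5 at 523 and 501 FPKM and Itgav at 215 and 226 FPKM. Itga11, a collagen receptor of mesenchymal cells, was at 121 and 112 FPKM. Cdh11, the cadherin of osteoblasts and fibroblasts, was at 212 and 221 FPKM and Cdh2 at 59.3 and 60 FPKM, while Cdh1, the epithelial cadherin, was at 0.0353 and 0.0401 FPKM.

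Of 40 receptor tyrosine kinases 21 were expressed. Axl, the receptor of the ligand Gas6, was at 570.0 and 551 FPKM. Ddr2, a receptor for fibrillar collagen, followed at 183 and 193 FPKM, then Pdgfrb at 148 and 143 FPKM and Fgfr1 at 138 and 136 FPKM. Pdgfra, the other PDGF receptor and a common sorting marker of marrow stroma, was low at 8.73 and 8.79 FPKM. Cytokine receptors were led by Il6st, the shared gp130 chain (284 and 289 FPKM), and Tnfrsf1a (241 and 236 FPKM), with 25 of 43 expressed.

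Chemokine receptors were nearly missing. Of 22 genes the single one expressed was Ackr3, the atypical receptor that takes up CXCL12, at 6.79 and 6.13 FPKM. Cxcr4, the signalling receptor of that chemokine, was at 0.585 and 0.748 FPKM, under the threshold in both libraries.

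Receptors of developmental signals were present at moderate levels. For TGF-beta and BMP, 10 of 14 receptors were expressed, with Bmpr1a at 76.3 and 76.8 FPKM and Tgfbr2 at 51.3 and 51.9 FPKM under Eng. Wnt receptors were expressed in 14 of 18 cases, led by Smo, which is listed with the frizzled genes and transmits Hedgehog signals (59.1 and 60.5 FPKM), Lgr6 (48.1 and 48.3 FPKM) and Fzd1 (44 and 44.8 FPKM). Notch2, at 17.6 and 17 FPKM, was the highest of 8 expressed Notch receptors and ligands. Pth1r, the parathyroid hormone receptor of osteoblasts, was at 0.883 and 0.463 FPKM.

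Transcription factors recognised by family name numbered 549, of which 297 were expressed and 98 were listed at 0, and they took 1.58% and 1.59% of summed FPKM. The highest was Fos, an immediate-early factor (293 and 286 FPKM), followed by Tsc22d1 (256 and 274 FPKM), Id3, an inhibitor of basic helix-loop-helix factors (235 and 228 FPKM), and Nfe2l1 (192 and 176 FPKM). Prrx1, a factor of limb and skeletal mesenchyme, was at 127 and 138 FPKM. Runx2, which commits cells to bone, was at 52.7 and 54 FPKM and Pparg, which drives fat formation, at 18.9 and 15.9 FPKM. The fate factors of other tissues Myod1 (muscle), Sox10 (glia), Gata1 (red cells), Pax5 (B cells) and Pou5f1 (pluripotency) were listed at 0.

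Hox genes, which keep a record of position along the body axis, were split by cluster. In the Hoxa cluster on chromosome 6, 9 of 11 genes were expressed, summing to 151 and 165 FPKM. The Hoxb cluster on chromosome 11 had 8 of 10 (119 and 126 FPKM) and the Hoxc cluster on chromosome 15 had 7 of 9 (151 and 157 FPKM). None of the 9 genes of the Hoxd cluster on chromosome 2 was expressed, and together they summed to 0.0600 and 0.0945 FPKM. In each of the other clusters the highest gene belonged to group 9 or 10. Hoxb9 was at 67.1 and 67.4 FPKM, Hoxc10 at 54.7 and 60.6 FPKM, Hoxa10 at 55.2 and 58.5 FPKM and Hoxa9 at 44.7 and 50.4 FPKM, with Hoxc6 close to them at 47.2 and 45.2 FPKM. Genes of higher number were lower: Hoxa11 was at 0 and 0.231 FPKM, Hoxa13 was listed at 0 and Hoxc11 was at 0.196 and 0.223 FPKM, although Hoxc13 was at 7.45 and 8.14 FPKM. The annotated spans of several neighbours overlap, such as Hoxa3 with Hoxa4 and Hoxc5 with Hoxc6, so the division of reads among them is uncertain.

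**Figure D3:**
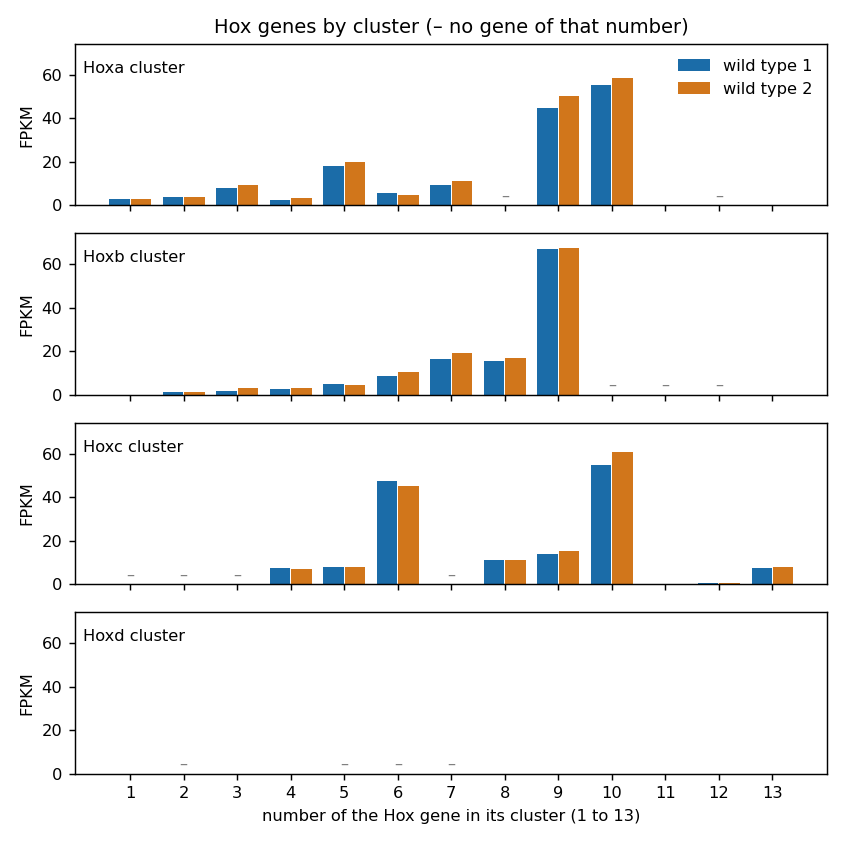
FPKM of the Hox genes by cluster (panels) and by number in the cluster (horizontal axis) in wild type 1 and 2, on the same linear scale in every panel. The highest bar of the Hoxa, Hoxb and Hoxc panels is in group 9 or 10, up to Hoxb9 at 67.4 FPKM, and the Hoxd panel is empty at this scale because its genes sum to less than 0.1 FPKM.

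Lineage markers were read as lists, beside the 51.6% of protein-coding genes that were expressed. Of 22 surface markers of stromal cultures, 20 were expressed. Ly6a (Sca-1) was at 328 and 303 FPKM, Cd44 at 104 and 106 FPKM, Thy1 at 14.9 and 16 FPKM and Nt5e (CD73) at 3.28 and 3.13 FPKM. Ngfr, a marker of freshly isolated stroma in humans, was listed at 0.

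Markers of perivascular marrow stroma were expressed in 12 of 16 cases, and ranged from Cxcl12 above to 0. Beside Cxcl12, Prrx1 and Nes, the adhesion molecule gene Vcam1 was at 39.5 and 42.7 FPKM and Foxc1, a factor needed for the niche, at 26.7 and 27.6 FPKM. Ebf3, another such factor, was at 4.04 and 4.22 FPKM. Lepr, the leptin receptor, was at 0.0902 and 0.333 FPKM, and Adipoq, adiponectin, which those cells make in the animal, was listed at 0.

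Of 19 osteoblast markers 7 were expressed (36.8%), 10 were above 0 without reaching the threshold in both libraries and 2 were listed at 0. The expressed ones included Spp1 and Runx2 above, Alpl, alkaline phosphatase, at 6.75 and 6.82 FPKM, and Sp7, osterix, at 5.52 and 5.73 FPKM. Ibsp, bone sialoprotein, was at 5.17 and 4.95 FPKM. Among those that missed, Dlx5 was at 0.79 and 1.18 FPKM, Phex at 0.468 and 0.56 FPKM, and Bglap, the osteocalcin gene of mature osteoblasts, at 0.25 and 0 FPKM.

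Members of the fat and cartilage lists ranged widely. Among 23 adipocyte markers 12 were expressed, the highest being the lipid synthesis genes Fasn (114 and 109 FPKM) and Scd1 (82.8 and 85.1 FPKM) and the droplet coat gene Plin2 (105 and 98.1 FPKM), all of which other cells also use. Fabp4, a fatty acid carrier of fat cells, was at 3.94 and 4.12 FPKM, and Adipoq, Cfd and Lep were listed at 0. Of 18 chondrocyte markers 5 were expressed; Sox9, the cartilage regulator, was at 4.07 and 4.38 FPKM and Acan, aggrecan, at 0.0199 and 0 FPKM.

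Contractile genes were the most abundant of these lists, with 14 of 18 expressed and 1.13% of summed FPKM in each library. Acta2, smooth muscle actin, was at 1923 and 1819 FPKM, Tpm1 at 1551 and 1673 FPKM, Cald1 at 1228 and 1303 FPKM and Tagln at 418 and 386 FPKM. Cnn1 was lower at 19.1 and 17.6 FPKM, and Myh11, the myosin of mature smooth muscle, was at 0.642 and 0.628 FPKM. Tendon markers were expressed in 7 of 8 cases, with the regulator Scx at 14.1 and 13.6 FPKM and Tnmd, tenomodulin, at 1.76 and 1.83 FPKM.

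Markers of other cells that a marrow culture can hold were mostly under the threshold, apart from those of macrophages. In these bulk samples fewer cells of a type and less RNA per cell cannot be told apart. Of 22 macrophage markers 15 were expressed, summing to 0.0262% and 0.0255% of FPKM. The lysozyme gene Lyz2 was at 65.9 and 63 FPKM, Cd68 at 12.7 and 10.8 FPKM, the complement gene C1qa at 7.05 and 6.33 FPKM, Csf1r, the receptor for the Csf1 product, at 3.65 and 4.19 FPKM, and Adgre1 (F4/80) at 1.12 and 1.25 FPKM. Itgam, which encodes the macrophage marker CD11b, was under the threshold at 0.244 and 0.257 FPKM. The part of such cells in the levels of immune genes named above was not tested.

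Other blood cells left few reads. Of 30 haematopoietic markers 2 were expressed, Cd34 (57.2 and 62.3 FPKM), which mouse stromal cells also make, and the integrin gene Itga2b (8.07 and 5.91 FPKM). Ptprc, the pan-leukocyte marker CD45, was at 0.988 and 1.12 FPKM, and Cd3e, of T cells, was listed at 0. Osteoclast markers were expressed in 2 of 9 cases, with the collagenolytic cathepsin gene Ctsk at 35.4 and 33.6 FPKM, Acp5 at 1.86 and 2.68 FPKM and Calcr at 0 and 0.0185 FPKM.

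Vessel and nerve sheath markers were also low. Of 20 endothelial genes 2 were expressed, Flt1 (1.69 and 1.58 FPKM) and Flt4 (1.29 and 1.21 FPKM), whereas Pecam1 was at 0.12 and 0.0455 FPKM and Cdh5 at 0.0248 and 0 FPKM. Of 10 Schwann and glial genes 3 were expressed, the highest being Cnp at 11.6 and 11.4 FPKM, and Sox10 was listed at 0.

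**Figure D4:**
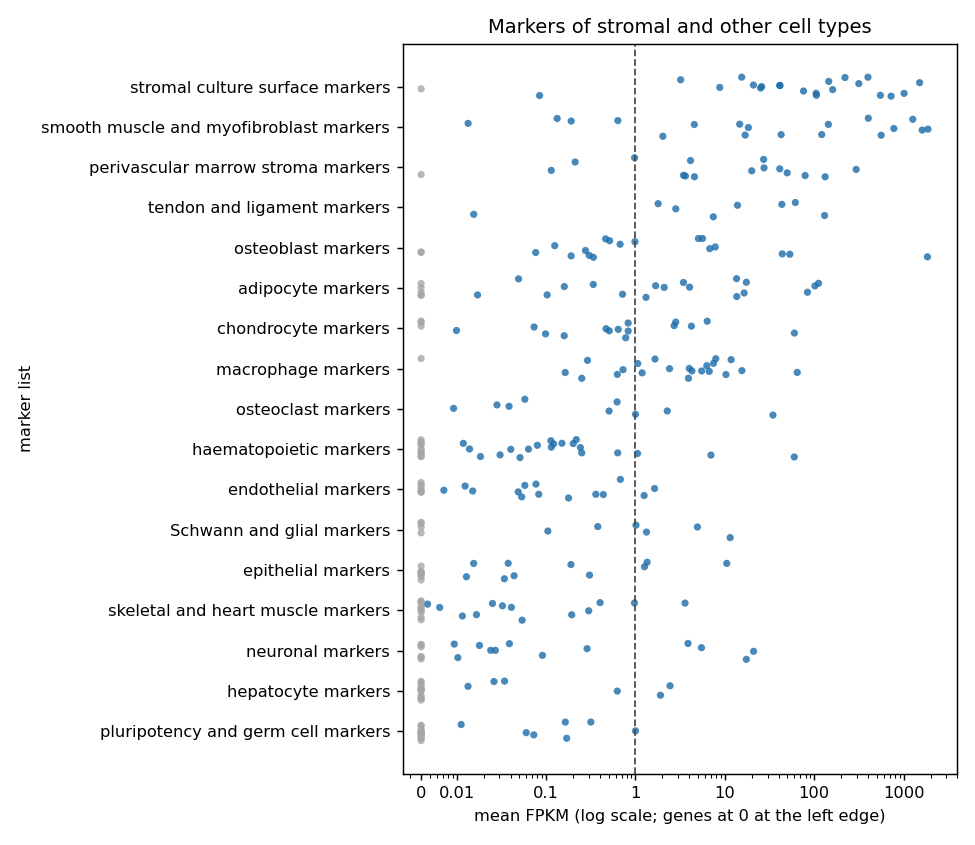
Mean FPKM over wild type 1 and 2 of every gene in 17 marker lists, 1 point per gene, on a log axis with genes at 0 drawn in grey at the left edge; the dashed line is at 1 FPKM. Stromal surface, contractile and perivascular markers lie mostly to the right of the line, up to Acta2 at 1871 FPKM, and markers of blood, endothelium and unrelated tissues mostly to its left.

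Genes of unrelated tissues were mostly silent as families. Of 1196 olfactory receptors 1 was expressed (Olfr613, 1.72 and 1.98 FPKM) and 1156 were listed at 0. None of 292 vomeronasal receptors, 38 taste receptors, 52 keratin-associated proteins or 21 major urinary proteins was expressed. Of 636 immunoglobulin and T cell receptor segments 2 were expressed, both short T cell receptor joining segments, and 621 were listed at 0. The T cell receptor constant genes stand outside that list, and 2 of 8 were expressed (0.00256% and 0.00215% of summed FPKM). No pluripotency or germ cell marker of 20 was expressed, and Nanog was at 0.335 and 0.299 FPKM. The liver, muscle, epithelial and neuronal lists had 2 of 18, 1 of 22, 3 of 18 and 4 of 18 genes expressed, of which the highest were Hp (2.36 and 2.51 FPKM), Tnnt3 (3.99 and 3.18 FPKM), Krt19 (10.3 and 10.7 FPKM) and Tubb3 (22.6 and 19.3 FPKM). One neuronal receptor stood out: Gria3, which encodes an AMPA-type glutamate receptor subunit, was at 43.5 and 45.5 FPKM, the highest of 5 expressed among 36 glutamate and GABA receptor genes.

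Genes of cell division were expressed throughout. All 30 genes of S phase and mitosis were expressed, with the ribonucleotide reductase gene Rrm2 at 224 and 235 FPKM, Top2a at 165 and 175 FPKM and Cdk1 at 129 and 134 FPKM. Inhibitors of the cycle and their regulators were present too, in 11 of 12 cases. Cdkn1a (p21) was at 211 and 197 FPKM and Cdkn2a, which rises with culture age in mouse cells, at 40.2 and 44.2 FPKM. All 19 immediate-early genes were expressed, Fos and Dusp1 (138 and 130.3 FPKM) highest.

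Both libraries carried the transcripts of a Y chromosome. Eif2s3y was at 43.2 and 46.8 FPKM, Ddx3y at 23.7 and 24.8 FPKM, Uty at 9.08 and 9.34 FPKM and Kdm5d at 8.55 and 9.06 FPKM. Xist, which is made from the inactive X chromosome, was at 0.0159 and 0.063 FPKM. The order of these genes was the same in both libraries. Among long non-coding RNAs Malat1 was highest at 1460.2 and 1518 FPKM, and H19, an imprinted RNA, was at 1.25 and 2.13 FPKM.

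The libraries were compared gene by gene to give the spread behind these levels. Of the 11769 expressed genes, 170 (1.44%) were at least 1.5-fold apart, 94 higher in wild type 2 and 76 higher in wild type 1. The median absolute log2 ratio was 0.09. Across genes the log2 FPKM of the libraries correlated with a Pearson r of 0.995 and a Spearman rho of 0.996, which describes genes of shared length and not replicates. Of the 7461 genes averaging 10 FPKM or more, 7 were 1.5-fold apart.

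Reads worked out from the FPKM differed by more than counting allows in 463 genes, 3.93% of those tested (exact two-sided binomial test of a gene's reads against the library totals, Benjamini-Hochberg adjusted p under 0.05). That test compares these 2 libraries only. The chi-square statistic over genes was 2.47 per degree of freedom, so the counts of the libraries did not agree within sampling noise. Whether they are separate cultures or repeat preparations cannot be told from it. The measures ran in opposite directions with depth. Of the 966 genes with under 100 reads in both libraries together, 135 were 1.5-fold apart and 5 (0.518%) passed the test. Among those with 10000 or more, none of 386 was 1.5-fold apart and 38.1% passed. Only 22 genes met both.

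Pseudogenes made up a larger part of the genes far apart than of all expressed genes. Of the 170 genes, 45 (26.5%) are annotated as pseudogenes, beside 199 (1.69%) of all expressed genes. Another 83 are protein coding, and the 170 had a median of 50.5 reads over both libraries together. The share of pseudogenes among expressed genes with similarly few reads was not computed, so the part of low counts in this contrast was not tested. Gm10800 differed most among genes averaging 5 FPKM or more, at 101 and 5.37 FPKM, an 18.8-fold difference from 673 and 63 reads (exact binomial test, adjusted p = 1.28e-213). Its neighbour on chromosome 2, Gm10801, was at 20.6 and 1.34 FPKM. Gm10800 and Gm10801 are annotated as protein coding. In the other direction, Rpl39-ps, a processed copy of a ribosomal protein gene, was at 3.52 and 24.0 FPKM and Rpl31-ps8 at 1.83 and 10.7 FPKM. How reads were divided between pseudogenes and their source genes is not known, so these values are uncertain.

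Among the 10 genes furthest apart at that level was Apoe, which encodes apolipoprotein E. It was at 3.10 and 9.24 FPKM, from 27 and 142 reads (2.99-fold, exact binomial test, adjusted p = 1.31e-06). Among 25 expressed collagens Col15a1 (1.07 and 1.79 FPKM) was the single gene 1.5-fold apart. The 3 collagens that passed the binomial test were Col1a1 (1.05-fold apart), Col1a2 (1.04-fold) and Col5a2 (1.04-fold). None of the 38 expressed matrix glycoproteins was 1.5-fold apart, and 9 passed the test. None of the 81 ribosomal protein genes was 1.5-fold apart either, although 32 passed the test. Of 29 actin cytoskeleton genes, likewise, none was 1.5-fold apart and 16 passed.

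**Figure D5:**
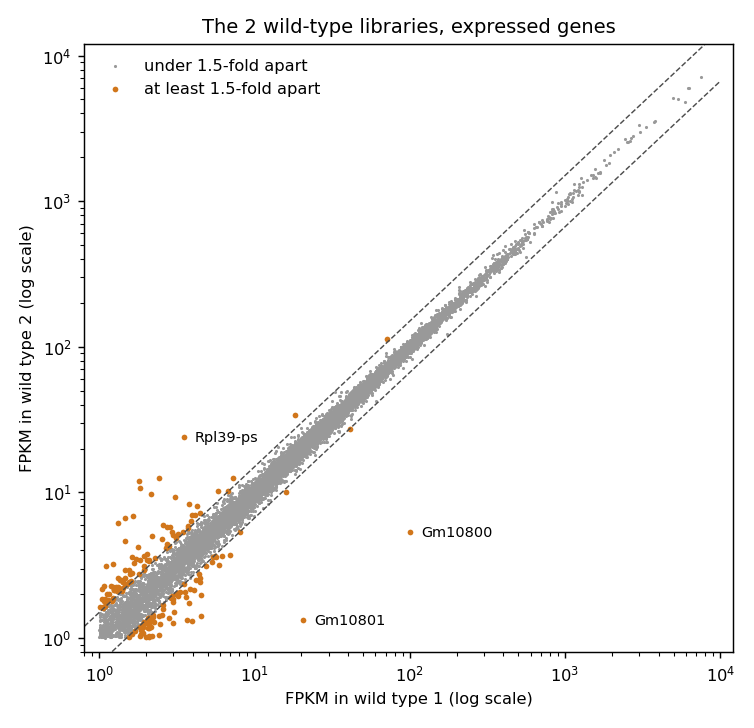
FPKM of each expressed gene in wild type 1 (horizontal) and wild type 2 (vertical), both on log axes; orange points are at least 1.5-fold apart and dashed lines mark that fold. Most genes lie between the lines, with Gm10800, Gm10801 and Rpl39-ps far outside, and the scatter is widest under 10 FPKM.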

How the data were processed

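Values in FPKM were deposited by the authors, 1 column per library, and were used as deposited; all columns were mapped. HTSeq 0.6.1, TopHat2 2.0.12 and Bowtie2 2.2.3 are listed, per the submitters' processing notes, with build mm10 and no roles. How gene lengths were set is not given in the sources used here. The FPKM are exact quotients, so library totals and each gene's smallest whole read count were worked out from them, to within 1e-06 of a read; these counts are lower bounds and sum to 97.7% of the totals. The knockout-labelled columns served only that length arithmetic.

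Names, types and coordinates came from GENCODE M21 (40456 genes), promoters from RefSeq (GRCm38.p6). Genes at 1 FPKM or more in both libraries were ranked by mean FPKM, with SD over the 2 libraries. No conditions were compared. Library differences used a 1.5-fold limit and an exact two-sided binomial test with Benjamini-Hochberg adjustment over 11769 genes, tested on simulated data (Python 3.11.15, pandas 2.3.3, numpy 2.4.6, scipy 1.17.1, matplotlib 3.10.9). The test covers counting error only.

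The members and lists were chosen with earlier results of these data known. The genes named are the 25 of highest mean, up to 6 of highest mean per list (all of the stromal, bone, fat, cartilage, contractile and sex-linked lists), the markers of cell types, the highest member of silent families, and the 10 most different between libraries above a mean of 5 FPKM. Others (genes listed at 0 or under the threshold outside those lists, Col2a1, Dcn, Lum, Pdgfra, Wnt5a, Bmp2, Il6, the Hox genes of lower level and the fate factors) were chosen after their values were seen. Protein features were not computed here. Results on some genes are not reported here.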

Additional observations from a re-analysis of the deposited data

How the results depend on the processing

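No paired analysis was possible because 1 group was described and no groups were compared. The count of expressed genes went from 11769 to 18502 without a filter; leaving out a library gave 12039 to 12100. The share of matrix lists, 8.46%, was 10.4% by reads, 8.73% without mitochondrial transcripts and 7.32% with the longest transcript as length, an alternative chosen after seeing the data. Collagens, at 2.71%, gave 3.95%, 2.79% and 1.89% in that order, ribosomal proteins, at 5.58%, gave 2.44%, 5.76% and 6.54%, and the 10 highest genes, at 8.06%, gave 5.77%, 7.41% and 7.37%. Ribosomal proteins thus stood above collagens by FPKM and below them by reads. With single libraries these 4 shares were 8.35% to 8.57%, 2.65% to 2.76%, 5.48% to 5.68% and 7.86% to 8.26%. The 170 genes 1.5-fold apart became 65 with 1 FPKM added, 9 at 5 FPKM or more in both, 3914 without a filter and 36 at 2-fold. The binomial count stayed between 451 and 500 under 2 alternatives added after seeing the data. At 10 FPKM or more the median CpG ratio of expressed promoters went from 0.784 to 0.810 and the share with TATAAA from 1.04% to 0.966%; single libraries gave 0.781 to 0.782 and 1.05% to 1.08%. Depth limits genes near 1 FPKM most, and genes with short annotated transcripts are set too high against full-length mRNA.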

Other observations

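The 13 protein genes of the mitochondrial genome fell into separate ranges, looked up after their values were seen. The 8 genes mt-Nd1, mt-Nd2, mt-Co1, mt-Atp8, mt-Nd4, mt-Nd5, mt-Nd6 and mt-Cytb lay between 1060.3 and 5886 FPKM. The other 5 were near 0. Among them mt-Co2 was at 0.290 and 0.329 FPKM (at least 1 and 2 reads) and mt-Atp6 at 2.04 and 3.80 FPKM. The remaining ones were mt-Co3 at 8.59 and 0.789 FPKM, mt-Nd3 at 2.85 and 5.82 FPKM and mt-Nd4l at 0 and 0.379 FPKM. On the mitochondrial chromosome these 5 lie between mt-Co1 and mt-Nd4, in a stretch that also holds mt-Atp8.

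GENCODE M21 lists 7 unprocessed pseudogenes in a row on chromosome 1, from 24611535 to 24616197, on the minus strand of GRCm38. Set against them without gaps, the transcripts of mt-Co2 (681 bases compared), mt-Atp6 (678), mt-Co3 (783) and mt-Nd4l (294) had a copy with 0 differing bases, and mt-Nd3 (345) a copy with 1. The pseudogenes were themselves low, at no more than 16.6 FPKM (Gm28438, 12.6 and 16.6 FPKM). The mt-Nd4 transcript matched its copy, Gm28439, over 876 of its 1378 bases and stood at 1076 and 1112 FPKM. The mt-Co1 transcript matched Gm29216 over 492 bases with 6 differing, and stood at 3039 and 2963 FPKM. For mt-Atp8 none of these 7 pseudogenes matched. The bases between the pseudogenes were not compared, so whether a copy of mt-Atp8 lies there was not tested. The levels of the 5 low genes, and the summed share of mitochondrial transcripts (3.10% and 3.03%), are therefore uncertain. Whether reads that match both places were discarded was not tested.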
